A study of Homo sapiens with 18 samples.

Results

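The transcriptome of HCC1937-EV cells after 12 h of olaparib was compared with that of the same line before treatment. HCC1937 is a human triple-negative breast cancer cell line with mutated BRCA1, and HCC1937-EV carries an empty vector. The comparison took 6 of the 18 RNA-seq libraries of the series, chosen by their sample names: 3 untreated libraries (0 h) and 3 libraries after 12 h with 10 µmol/L olaparib. The other 12 libraries are 3 of HCC1937-EV at 24 h and 9 labelled HCC1937-OE-BRCA1, the same line with wild-type BRCA1 put back, at 0 h, 12 h and 24 h. They entered the fit and served for side-by-side values. No library of either line was untreated at 12 h or 24 h, so olaparib cannot be told apart from time in culture or vehicle. The labels name neither the vector's promoter nor whether a line is 1 clone. Their treatment field names olaparib even at 0 h, and their genotype field says WT for HCC1937-EV, so groups and lines were read from the sample names. The sources used here do not say whether the replicates were separate cultures, so every p-value here measures the spread between these libraries, which may be technical.

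Olaparib is a PARP inhibitor (PARPi). PARP1 binds DNA breaks and builds poly(ADP-ribose) chains that recruit repair factors. Inhibited PARP1 stays on DNA and hinders replication forks, and cells without BRCA1 repair the resulting breaks poorly because homologous recombination needs BRCA1. Replication stress and breaks are known to act on the cell cycle, on histone mRNAs, which are made in S phase, and on p53 target genes.

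Total counts were 16177164 to 16441338 in the untreated libraries and 15081973 to 15839766 at 12 h. Of the marker genes used to check the line, 4 of 9 for basal breast epithelium and 3 of 6 for epithelium exceeded 1 CPM, the counts of a gene scaled to a common library size. The defining basal and epithelial markers KRT5, KRT14, TP63, EPCAM and CDH1 were below 1 CPM in every library, so the epithelial label rested on KRT8, KRT18, EGFR, LAMB3 and FOXC1. Of the luminal markers 4 of 5 exceeded 1 CPM, with sums of 149 to 177 CPM untreated and 155 to 188 CPM at 12 h. Most of these sums was ERBB2 at 127 to 168 CPM, followed by FOXA1 at 16.5 to 20.5 CPM. ESR1 read only 1.28 to 2.65 CPM and GATA3 1.36 to 2.86 CPM, and PGR was absent from the counts. Of the fibroblast markers 2 of 6 exceeded 1 CPM, COL1A1 at 89 to 125.5 CPM and PDGFRB. The fibroblast markers summed to 97.2 to 116.5 CPM untreated and 100.2 to 134 CPM at 12 h. COL1A2, COL3A1, DCN and LUM were below 1 CPM. Of the endothelial markers 1 of 4 and of the adipocyte markers 1 of 3 exceeded 1 CPM, and none of the leukocyte markers did. The leukocyte markers summed to at most 0.0618 CPM in an untreated library and 0.256 CPM in a 12 h library. BRCA1, the gene that the other line is labelled as overexpressing, read 126, 111 and 117 CPM in HCC1937-EV at 0 h. At the same time point the libraries labelled HCC1937-OE-BRCA1 read 166, 122 and 127 CPM. These ranges overlapped, so gene-level counts did not separate the lines by BRCA1, and the second line is called by its label. In bulk RNA, fewer cells of a state and less RNA per cell cannot be told apart.

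The 3 libraries at 12 h were not alike. Against the untreated mean, the rank correlation of a gene's log2 difference with its GC content, across 13429 expressed genes, was -0.141 in replicate 1, 0.249 in replicate 2 and 0.639 in replicate 3. Genes are not independent replicates, and the coefficients describe the libraries. Untreated libraries set against their 2 companions gave -0.44, 0.433 and 0.0713. With transcript length the coefficients at 12 h were -0.314, -0.188 and -0.408, so shorter transcripts read higher in all 3 libraries. GC content and length together accounted for 23.3% of the variance of the 12 h fold changes. The 2686 genes of highest GC content had a median log2 difference of -0.02 in replicate 1, 0.16 in replicate 2 and 0.45 in replicate 3. The 2686 genes of lowest GC content stood at 0.08, -0.02 and -0.39. Library values are given for the results below that turn on them, beside a fit that carries each library's own GC and length trend as an offset. That offset would also take away a true effect of olaparib that follows GC content or length.

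**Figure D1:**
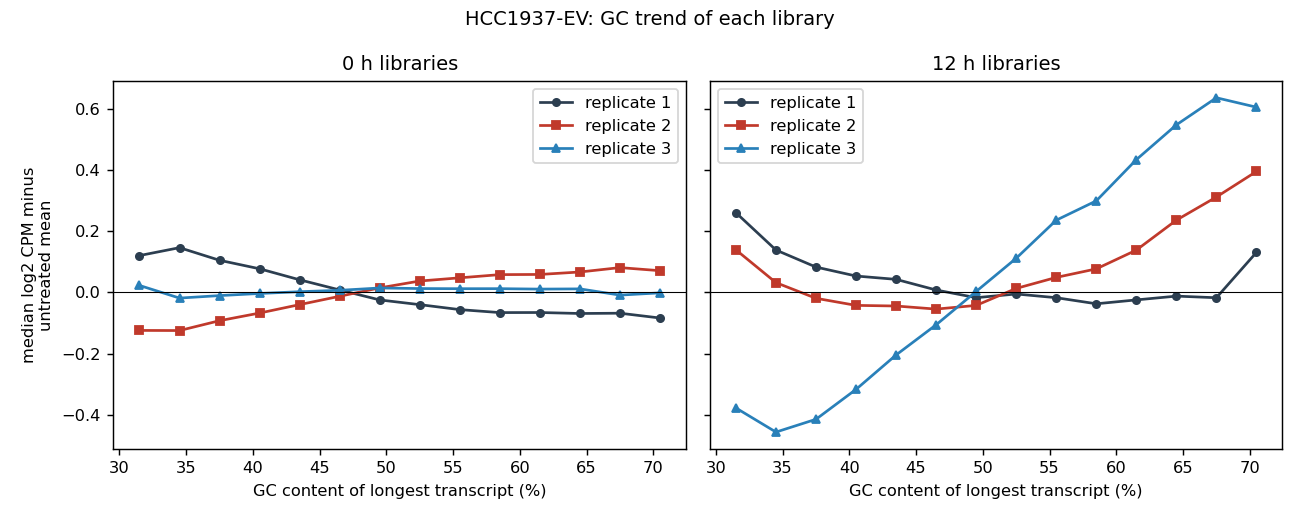
Median log2 CPM of each HCC1937-EV library minus the untreated mean (y axis) against the GC content of the longest transcript in percent (x axis), in bins of 3% with at least 20 genes. Left, 0 h. Right, 12 h. Replicate 3 at 12 h climbs steeply, with a rank correlation of 0.639, replicate 2 climbs less and replicate 1 runs nearly flat.

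In edgeR's quasi-likelihood test over all 18 libraries, 10 of 18335 genes passed an adjusted p of 0.05 at 12 h, or 0.0545%. Of these, 6 (0.0327%) were higher and 4 (0.0218%) were lower. Before adjustment 3010 genes had p under 0.05. Scaling by total counts alone gave 6 higher and 2 lower, and the GC and length offset gave 89 higher and 107 lower. The genes that rose were ZNF511, MPND, GCSHP5, RPL15P3, FAM171A2 and CEBPB, and those that fell were H2AC6, ENSG00000260404, KIF20A and PPRC1. The calls rested on the spread borrowed from the other groups. The 6 libraries fitted alone gave 0 calls with edgeR, with 2304 genes at an unadjusted p under 0.05, and the 9 HCC1937-EV libraries alone gave 0 calls, with 2751 such genes. DESeq2 over all 18 libraries called 276. The number also turned on single libraries: it was 1 or 2 without any one of the 3 untreated libraries or of replicates 2 and 3 at 12 h, and 506 without replicate 1 at 12 h.

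H2AC6 had the smallest adjusted p. It encodes a histone H2A of the large histone cluster on chromosome 6 (GRCh38 chr6:26124145-26139116 in GENCODE). It read 20, 16.8 and 18 CPM at 0 h and 8.84, 9.75 and 9.17 CPM at 12 h. All 3 treated libraries lay below all 3 untreated ones, at close to the same level. The log2 fold change was -0.98 ± 0.12 (SE, n = 3 against 3; adjusted p = 0.0012, edgeR quasi-likelihood test). It passed in all 6 fits that left out 1 HCC1937-EV library, with an adjusted p of at most 0.0207, and with the GC and length offset (-1.03). It did not pass in the 6 libraries alone (adjusted p = 0.179) or the 9 HCC1937-EV libraries alone (adjusted p = 0.0778), both by edgeR. At 24 h, against the same untreated libraries, its log2 fold change was -1.20.

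H2AC6 is one of the replication-dependent histone genes. These genes, clustered on chromosomes 6 and 1, supply histones for new DNA, and most of their mRNAs end in a stem-loop without poly(A). The sources used here do not state a poly(A) selection, and counts of such genes can depend on it. Of 61 listed genes 35 were tested and 16 exceeded 1 CPM. Among these 16, H2AC6 alone passed the test. In 8 of the 16 (50%) every 12 h library was below every untreated library, against 11.7% of all expressed genes, and in 0 was every one above, against 12%. The median log2 fold change was -0.56, beside 0.01 over all 13514 expressed genes. By library the median difference from the untreated mean was -0.48, -0.64 and -0.49, so the 3 treated libraries were close despite their unlike GC trends. With the GC and length offset the median was -0.58 and 4 genes were called lower and 0 higher, where 0.584% of all tested genes were called lower and 0.485% higher.

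H2BC12, an H2B gene, had 24.4, 28.4 and 27.9 CPM untreated and 17, 16.5 and 21.6 CPM at 12 h. H2BC21, another H2B gene, had 7.45, 5.38 and 7.03 CPM untreated and 4.1, 4 and 4.62 CPM at 12 h. H4C8, an H4 gene, had 3.11, 2.41 and 2.04 CPM untreated and 1.34, 1.25 and 1.02 CPM at 12 h. None of the 3 overlapped between groups, and none passed the test (adjusted p = 0.14, 0.14 and 0.127, edgeR). H1-2, a linker histone gene, stood apart with a log2 fold change of 0.01 ± 0.18, as did H3C8 with 0.45 ± 0.36. Histone genes are near-identical in parts, so reads may have been divided among them by the counting.

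**Figure D2:**
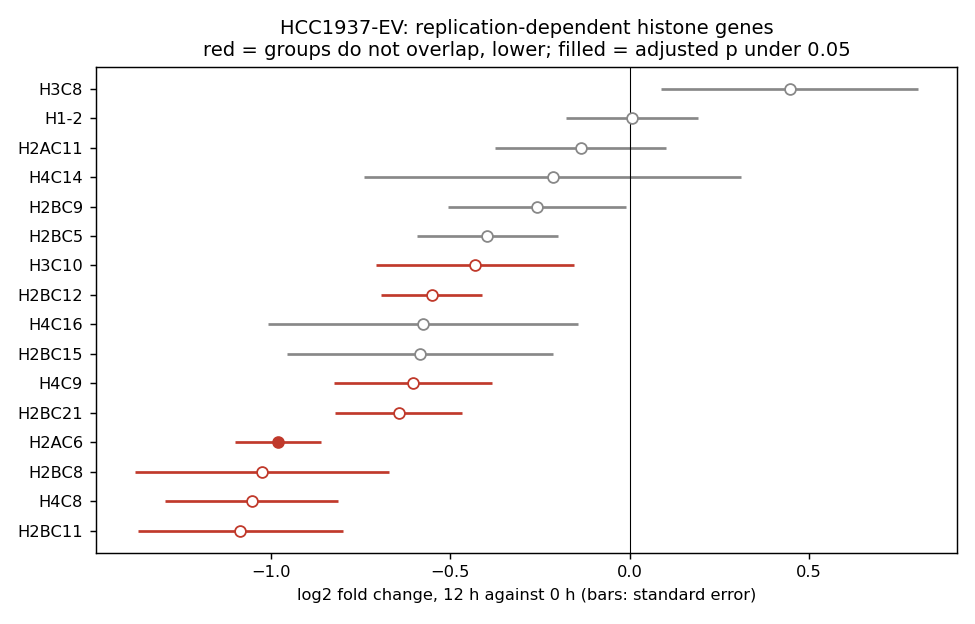
Log2 fold change at 12 h against 0 h (x axis, bars are standard errors) of the 16 replication-dependent histone genes above 1 CPM in HCC1937-EV. The 8 genes in red did not overlap between groups, and the filled point, H2AC6 at -0.98, alone passed an adjusted p of 0.05.

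Sequence upstream of 4 of these genes is shown because histone promoters share short elements. The 4 were picked by name and all hold the octamer described below, so they do not stand for the 16. The stretches run from base -150 to base -31 before the RefSeq start (GRCh38.p14), on the strand of the gene. Capitals mark the CCAAT element, which reads as ATTGG when it lies on the other strand. They also mark the octamer ATTTGCAT, which then reads as ATGCAAAT.
H2AC6, chr6:26124022-26124141, plus strand: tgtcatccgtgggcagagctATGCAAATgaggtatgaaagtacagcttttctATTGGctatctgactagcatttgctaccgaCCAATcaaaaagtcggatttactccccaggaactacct
H2BC21, chr1:149886713-149886832, minus strand: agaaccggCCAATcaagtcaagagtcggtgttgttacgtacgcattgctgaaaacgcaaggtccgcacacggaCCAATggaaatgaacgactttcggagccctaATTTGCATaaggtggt
H2BC11, chr6:27132826-27132945, minus strand: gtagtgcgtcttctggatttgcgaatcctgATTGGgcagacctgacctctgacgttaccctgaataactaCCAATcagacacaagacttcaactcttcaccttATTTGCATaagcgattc
H2BC8, chr6:26216719-26216838, minus strand: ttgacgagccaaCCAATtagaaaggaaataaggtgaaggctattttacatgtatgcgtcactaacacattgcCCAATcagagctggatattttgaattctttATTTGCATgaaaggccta
In these 3 H2B genes the octamer begins 46 to 48 bases before the start, with CCAAT farther out. In H2AC6 it lies on the other strand, 130 bases before the start. Over the 250 bases before the start, on both strands, the octamer was in 7 of the 16 histone genes and in 1.63% of all 35116 RefSeq promoters. It was in 5 of the 8 that did not overlap. CCAAT was in 13 of the 16 and in 32% of all promoters, and in 7 of the 8 that did not overlap. TATAA, not marked above, was in 14 of the 16 and in 18.9% of all promoters, and in all 8 that did not overlap. The genes are related by descent, and a match is a description of letters only.

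KIF20A, a mitotic kinesin needed for cytokinesis, fell from 187, 192 and 182 CPM to 142, 119 and 124 CPM. All treated libraries were below all untreated ones, with a log2 fold change of -0.54 ± 0.10 (SE, n = 3 against 3; adjusted p = 0.0416, edgeR). It was also -0.53 with the offset. In the libraries labelled HCC1937-OE-BRCA1 its log2 fold change was -0.50 ± 0.10, and the difference between the lines was -0.04 ± 0.14.

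In the wider set of G2/M and mitosis genes both directions were present. Among 76 expressed members, 9 were higher and 11 lower without overlap (11.8% and 14.5%, against 12% and 11.7% of all expressed genes), with a median of -0.04. KIF20A was the one member that passed. With the GC and length offset 5 members were called lower and 1 higher, where 0.584% of all tested genes were called lower and 0.485% higher. The median with the offset was -0.07, and without replicate 1 at 12 h it was -0.10. In the libraries labelled HCC1937-OE-BRCA1 the same genes had a median of -0.36. The difference between the lines passed for 3 of 77 tested members, all higher in HCC1937-EV, against 0.125% of all tested genes. MKI67, the proliferation marker Ki-67, had 353, 329 and 347 CPM untreated and 244, 248 and 174 CPM at 12 h, without overlap (log2 fold change -0.63 ± 0.15, adjusted p = 0.127, edgeR). With the offset MKI67 was at -0.42 and passed (adjusted p = 0.0286, edgeR). Of 59 expressed genes of DNA replication and S phase, 4 were higher and 8 lower without overlap (6.78% and 13.6%, against 12% and 11.7%), with a median of 0.00 and none passing. With the offset 3 were called lower and 0 higher (against 0.584% and 0.485% of all tested genes), and the median was -0.04. CCNE1, cyclin E1, was at 18.8, 20.8 and 20.3 CPM untreated and 13.9, 12.8 and 17.3 CPM at 12 h. With the offset its log2 fold change was -0.57 and it passed (adjusted p = 0.0227, edgeR).

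PPRC1, a coactivator related to PGC-1 that acts on genes for mitochondria, fell from 208, 210 and 199 CPM to 148, 148 and 154 CPM. Its libraries were tight within each group, and the log2 fold change was -0.46 ± 0.09 (SE, n = 3 against 3; adjusted p = 0.0489, edgeR). Its call held in 6 of 14 other settings. Apart from H2AC6, each of the 10 called genes passed in 1 of the 6 fits that left out 1 library. ENSG00000260404, a pseudogene on chromosome 4, has no symbol and so lies outside the rule for named genes. It is given because it passed, and went from 25, 29.2 and 26.6 CPM to 16.8, 15.2 and 13.4 CPM.

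CEBPB, a bZIP transcription factor of stress and inflammatory responses, rose from 82.9, 83.2 and 87.3 CPM to 120, 138 and 124 CPM. Every treated library was above every untreated one (log2 fold change 0.59 ± 0.10, SE, n = 3 against 3; adjusted p = 0.0416, edgeR). CEBPB has 66.2% GC, and with the GC and length offset its log2 fold change was 0.28 and it no longer passed (adjusted p = 0.304, edgeR). FAM171A2, a membrane protein gene with 71.3% GC, rose from 9.5, 9.58 and 9.37 CPM to 15, 15.7 and 17.7 CPM, and lost its call with the offset as well (log2 fold change 0.44, adjusted p = 0.0838, edgeR). These are the 2 of the 10 genes whose call the offset ended.

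MPND, which encodes an MPN domain protein, rose from 5.65, 5.25 and 6.11 CPM to 9.61, 10.1 and 13.7 CPM (log2 fold change 0.97 ± 0.17). ZNF511, a zinc finger gene, rose from 4.22, 5.69 and 3.7 CPM to 8.13, 10.1 and 11.8 CPM (1.14 ± 0.21). Both kept their call with the offset, at 0.62 and 0.97. RPL15P3 and GCSHP5 are processed pseudogenes of RPL15 and GCSH and share reads with them, so their counts are uncertain. RPL15P3 rose from 31.1, 40.9 and 34.4 CPM to 47.4, 66.2 and 76.7 CPM, and GCSHP5 from 7.14, 6.18 and 6.29 CPM to 11.4, 12.4 and 13.3 CPM.

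**Figure D3:**
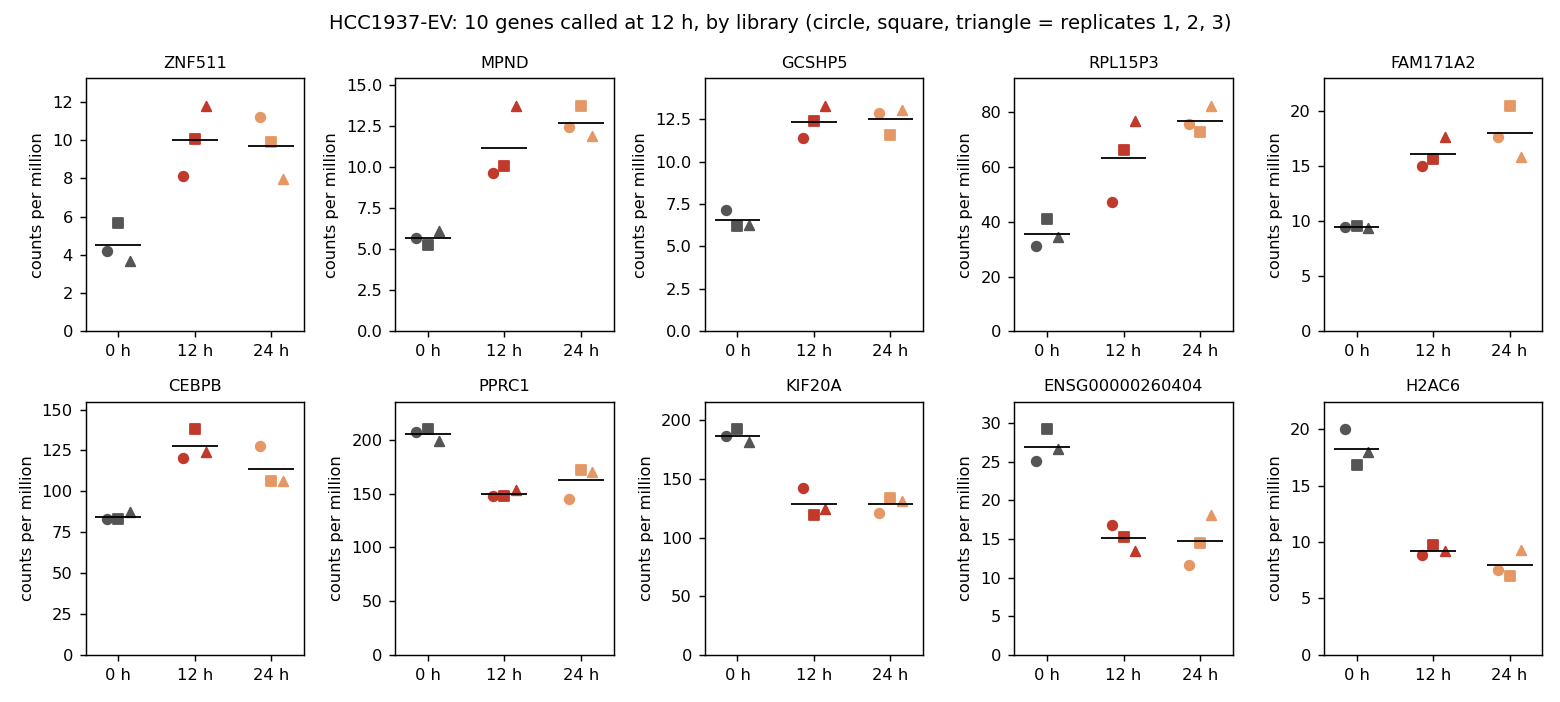
CPM (y axis, from 0) of the 10 genes called at 12 h in each HCC1937-EV library at 0 h, 12 h and 24 h (x axis). Points are libraries, shaped by replicate, and lines are means. For all 10 genes the 12 h libraries lie wholly above or below the untreated ones.

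Genes of the integrated stress and unfolded protein response, the list that holds CEBPB, had 11 of 44 expressed members higher and 4 lower without overlap (25% and 9.09%, against 12% and 11.7%), with a median of 0.10. With the offset 0 were called higher and 1 lower (against 0.485% and 0.584% of all tested genes), and the median was 0.06. SDF2L1, an endoplasmic reticulum chaperone component, was at 40.3, 45.7 and 49 CPM untreated and 55.2, 74.3 and 120 CPM at 12 h, the last in replicate 3.

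Among 31 expressed p53 target genes 8 were higher and 3 lower without overlap (25.8% and 9.68%, against 12% and 11.7%), with a median of 0.07, and none passed. HCC1937 is known to carry mutated p53. GDF15, a stress cytokine, had 7.45, 8.71 and 8.2 CPM untreated and 12.5, 14.4 and 18.5 CPM at 12 h (log2 fold change 0.90 ± 0.18, adjusted p = 0.0877, edgeR). CDKN1A, the cell cycle inhibitor p21, had 9.44, 10.8 and 13.1 CPM untreated and 15.9, 17.1 and 17.7 CPM at 12 h (0.60 ± 0.13, adjusted p = 0.127, edgeR). Neither overlapped between groups. With the GC and length offset both passed, GDF15 at 0.57 (adjusted p = 0.022, edgeR) and CDKN1A at 0.43 (adjusted p = 0.0484, edgeR). They were the 2 members called higher with it and 0 were called lower, against 0.485% and 0.584% of all tested genes. The median of the list with the offset was 0.09. In the libraries labelled HCC1937-OE-BRCA1 the log2 fold changes were 0.94 ± 0.17 for GDF15 and 0.60 ± 0.10 for CDKN1A, and the differences between the lines were -0.05 ± 0.25 and 0.00 ± 0.15. Over the list the difference between the lines passed for 1 of 31 tested members, higher in HCC1937-EV, against 0.125% of all tested genes.

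Nuclear-encoded genes of oxidative phosphorylation and ribosomes read higher at 12 h as groups, without any member passing the main test. Of 36 expressed genes of respiratory complex I, which takes electrons from NADH, 16 were higher and 0 lower without overlap (44.4%, against 12% of all expressed genes), with a median of 0.35. Complexes II to IV had 17 of 26 higher and a median of 0.31. Cytosolic ribosomal proteins had 46 of 84 higher and a median of 0.28, and mitochondrial ribosomal proteins had 32 of 76 higher and a median of 0.21. ATP synthase had 8 of 18 higher and a median of 0.20.

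These groups varied between libraries. Complex I had medians of 0.22, 0.31 and 0.50 in replicates 1, 2 and 3, and cytosolic ribosomal proteins 0.21, 0.10 and 0.50. Replicate 3, which also had the steepest GC trend, was thus the highest. The median GC content was 48.5% for complex I and 48.0% for cytosolic ribosomal proteins, against 48.3% over all expressed genes. The transcripts of both groups are short. Their median length was 1350 bases for complex I and 1842 for cytosolic ribosomal proteins, against 3447 over all expressed genes. Of the 2686 expressed genes with the shortest transcripts (median 1257 bases), 23.7% were higher and 4.06% lower without overlap. Their median log2 fold change was 0.17. Without replicate 3 the medians of complex I and cytosolic ribosomal proteins were 0.26 and 0.18, and with the GC and length offset 0.28 and 0.20. Complexes II to IV stood at 0.20 without replicate 3 and 0.29 with the offset, ATP synthase at 0.12 and 0.15, and mitochondrial ribosomal proteins at 0.14 and 0.12. With the offset 1 gene of ATP synthase, ATP5PD, and 1 mitochondrial ribosomal protein gene, MRPL12, were called higher, where 0.485% of all tested genes were. The part of transcript length in these medians was not tested beyond that offset. COX6A1, a subunit of complex IV, had 19.7, 33.7 and 29.8 CPM untreated and 37.5, 70.1 and 99.1 CPM at 12 h. RPL26, a ribosomal protein gene with many pseudogenes, had 19.4, 21 and 22.5 CPM untreated and 22.9, 47.4 and 58.3 CPM at 12 h. In both genes the treated libraries spread widely.

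The 13 protein-coding genes of mitochondrial DNA encode further subunits of complexes I, III and IV and of ATP synthase. They had 0 passing in the main test and a median of -0.29. That value came from replicates 2 and 3 (-0.52 and -0.44), while replicate 1 stood at 0.09. Without replicate 1 the median was -0.51, without replicate 2 it was -0.16, and with the offset it was -0.33. MT-ND4L had 3191, 2797 and 3157 CPM untreated and 2239, 1635 and 1219 CPM at 12 h, and was 1 of 2 members that did not overlap (15.4%, against 11.7%). With the offset 4 members were called lower and 0 higher, where 0.584% of all tested genes were called lower and 0.485% higher. Among the 4 were MT-ND4L at -0.85 (adjusted p = 0.0491, edgeR) and MT-CO1 at -0.43 (adjusted p = 0.0357, edgeR). Mitochondrial transcripts made up 7.10% to 8.33% of counts untreated and 5.43% to 7.87% at 12 h.

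**Figure D4:**
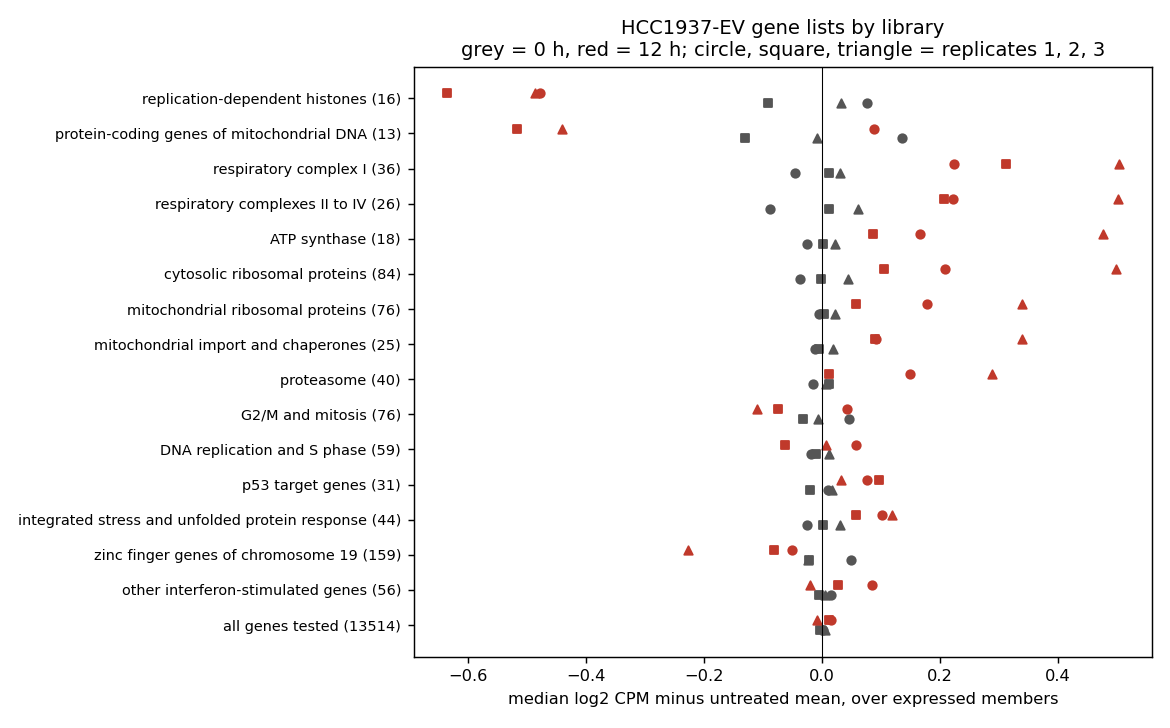
Median over expressed members (number in brackets) of log2 CPM minus the untreated mean (x axis) for 16 gene groups, by HCC1937-EV library. Grey is 0 h and red is 12 h. Histone genes lie between -0.64 and -0.48 in all 3 treated libraries, whereas respiratory and ribosomal groups spread, with replicate 3 the highest.

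Of 11509 expressed protein-coding genes, 446 were higher and 258 lower with an unadjusted p under 0.01, at least 5 CPM and no overlap. The direction ran with GC content. At an unadjusted p under 0.05, 739 of the 2686 expressed genes of highest GC content were higher and 36 lower. For the 2686 of lowest GC content these numbers were 72 and 251. With the GC and length offset 77 protein-coding genes were called higher and 91 lower. The largest fold change among the 446 was that of MCTS1, a translation factor, with 14.8, 7.6 and 20.8 CPM untreated and 57.4, 43.6 and 29.2 CPM at 12 h (log2 fold change 1.59 ± 0.33, adjusted p = 0.0911, edgeR). ROMO1, a mitochondrial inner membrane protein, had 12.4, 11.6 and 14.2 CPM untreated and 17.9, 29.6 and 52.6 CPM at 12 h. The 12 h libraries of MCTS1 were lowest in replicate 3 and those of ROMO1 highest in it. Among the 8 most negative fold changes, MAML1, a Notch coactivator, had 13.9, 12.7 and 14.4 CPM untreated and 5.89, 9.69 and 6.65 CPM at 12 h. MAB21L3 had 8.26, 8.1 and 8.57 CPM untreated and 4.48, 4.75 and 4.48 CPM at 12 h, with tight libraries in both groups (log2 fold change -0.86 ± 0.17, adjusted p = 0.0845, edgeR).

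Genes of DNA repair, which acts on the lesions a PARPi leaves, had no member that passed the main test. Of 41 expressed genes of homologous recombination and the Fanconi anaemia pathway 4 were higher and 1 lower without overlap (9.76% and 2.44%, against 12% and 11.7%), with a median of -0.05 that was 0.01 without replicate 3 at 12 h. FANCD2, a Fanconi anaemia protein loaded on DNA at stalled forks, had 90.2, 88.1 and 87.6 CPM untreated and 105, 116 and 98.8 CPM at 12 h. Its log2 fold change was 0.27 ± 0.08, and 0.38 with the GC and length offset, where it passed (adjusted p = 0.00825, edgeR). In the ATR and ATM checkpoint 2 of 20 were higher and 4 lower (10% and 20%, against 12% and 11.7%), with a median of -0.06 that was -0.15 without replicate 1 at 12 h. WEE1, the kinase that holds cells before mitosis, had 78.5, 68.4 and 66.8 CPM untreated and 57.4, 59.7 and 53.4 CPM at 12 h, without overlap (adjusted p = 0.15, edgeR). Of 23 expressed PARP family and poly(ADP-ribose) turnover genes 4 were higher and 7 lower (17.4% and 30.4%, against 12% and 11.7%), with a median of -0.04 that was -0.11 without replicate 1 at 12 h and 0.01 without replicate 3.

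Among apoptosis genes BCL2L11, which encodes the pro-apoptotic BIM, had 42.6, 42.2 and 39.7 CPM untreated and 31.4, 34.2 and 26.4 CPM at 12 h, without overlap (log2 fold change -0.43 ± 0.11, adjusted p = 0.14, edgeR). With the offset it was at -0.33 and passed (adjusted p = 0.0477, edgeR). Of 34 expressed caspase, death receptor and BCL2 family genes 6 were higher and 4 lower (17.6% and 11.8%, against 12% and 11.7%), with a median of 0.04 that was 0.10 without replicate 3 at 12 h. The proteasome had 11 of 40 higher and 0 lower (27.5%, against 12% of all expressed genes), with a median of 0.13 and library medians of 0.15, 0.01 and 0.29. The median was 0.07 without replicate 3 and 0.06 with the offset, where 1 gene, PSMC1, was called higher (against 0.485% of all tested genes).

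Zinc finger genes of chromosome 19, mostly repressors with KRAB domains, had 7 of 159 higher and 28 lower without overlap (4.4% and 17.6%, against 12% and 11.7%), with a median of -0.13. By library the medians were -0.05, -0.08 and -0.23, and with the offset the median was -0.07. None passed with either fit. The median GC content of these zinc finger genes was 43.1%. Of 2686 expressed genes with 41.05% to 45.76% GC (median 43.3%), 7.78% were higher and 17.8% lower without overlap.

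The study centres on splicing and on the sensing of double-stranded RNA. SF3B1, the splicing factor at the branch point, had 397, 361 and 378 CPM untreated and 341, 313 and 275 CPM at 12 h (log2 fold change -0.29 ± 0.10, adjusted p = 0.18, edgeR). Its groups did not overlap, and with the offset the log2 fold change was -0.13. IRF3, which switches on interferon genes, had 72.2, 77.1 and 78.2 CPM untreated and 74.8, 90.8 and 127 CPM at 12 h, with overlap. MAVS, the mitochondrial adaptor of RNA sensors, was at -0.05 ± 0.10 on the log2 scale. PARP1, the target of the drug, was at -0.04 ± 0.07. None of the 4 passed.

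The lines were then compared. The question was whether the change at 12 h was alike in HCC1937-EV and in the line labelled HCC1937-OE-BRCA1. The difference itself was tested as an interaction. Of 18335 genes 88 passed, with 23 (0.125%) higher and 65 (0.355%) lower in HCC1937-EV relative to the other line. Among the lower ones were 24 of the 62 expressed interferon-stimulated genes examined, and 0 of these 62 were among the higher ones. With the GC and length offset 383 genes were higher and 278 lower. Of the 12 genes with qPCR primers in the study 6 were expressed, and all 6 passed. The study works with these genes because of their response in these lines, so they are not independent evidence of its direction. Their median was 0.13 in HCC1937-EV, where leaving out 1 library moved it between 0.01 and 0.23, and 1.5 in the other line. The other 56 interferon-stimulated genes had medians of 0.05 and 0.72.

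OAS1, an enzyme that activates RNase L on double-stranded RNA, had 30.9, 29.7 and 30.5 CPM untreated and 33.3, 30.9 and 27.9 CPM at 12 h in HCC1937-EV. In the libraries labelled HCC1937-OE-BRCA1 it had 133, 143 and 132 CPM untreated and 358, 351 and 335 CPM at 12 h. The difference of the log2 fold changes was -1.34 ± 0.12 (adjusted p = 6.77e-06, edgeR). IFIT2, which binds viral RNA, had 6.77, 5.62 and 5.12 CPM untreated and 8.84, 7.31 and 6.38 CPM at 12 h in HCC1937-EV, against 42.9, 36.1 and 33.8 CPM and 141, 153 and 154 CPM in the other line. With the offset its log2 fold change in HCC1937-EV was 0.42 and it passed (adjusted p = 0.0474, edgeR). OASL was the 1 of the 6 without overlap in HCC1937-EV, with 7.33, 7.6 and 6.66 CPM untreated and 10.6, 9.13 and 11.9 CPM at 12 h (log2 fold change 0.55 ± 0.14, adjusted p = 0.14, edgeR). With the offset it was at 0.52 and passed (adjusted p = 0.0227, edgeR). IFNB1, IFNL1 and IFNL3 had 0 counts in all 6 HCC1937-EV libraries.

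**Figure D5:**
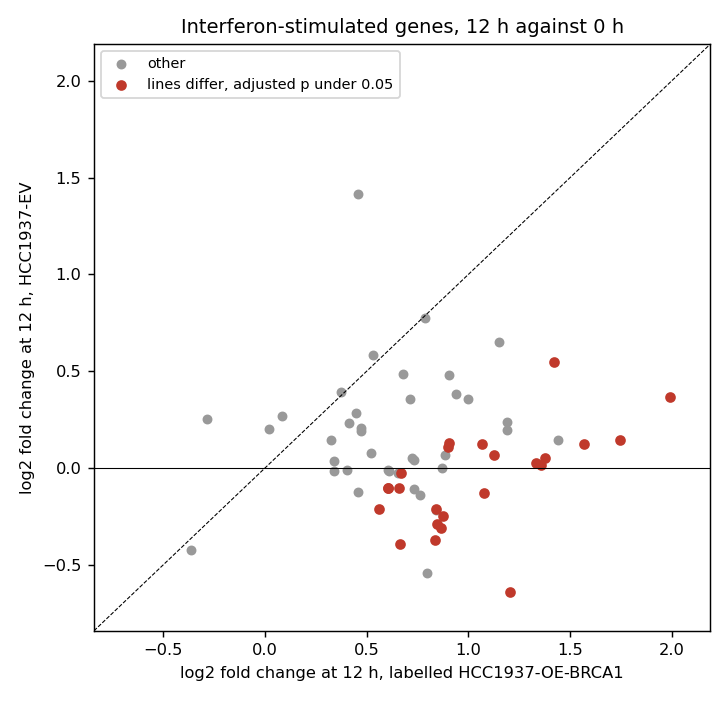
Log2 fold change at 12 h against 0 h of 62 expressed interferon-stimulated genes in HCC1937-EV (y axis) and in the libraries labelled HCC1937-OE-BRCA1 (x axis). The dashed line marks equal change. The 24 red genes, where the lines differed at an adjusted p of 0.05, all lie below it.

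Groups of 3 libraries allow an exact permutation test of a single gene to reach a two-sided p of 0.1 at best, so no such test could pass 0.05 here.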

How the data were processed

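RNA was extracted with TRIzol and libraries were made with the NEBNext Ultra II kit, per the labels. The authors deposited raw counts per gene. The submitters' processing notes name HISAT2, featureCounts and DESeq2 and the builds GRCh38 and hg38, without versions. Strandedness and annotation are not given in the sources used here, so reads of overlapping and antisense genes cannot be told apart. The 18 single-library tables equalled the columns of the joint table of 35044 genes. Groups came from sample titles.

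Counts were tested with edgeR 4.0.16 (R 4.3.3): filterByExpr, TMM, quasi-likelihood fit over 18 libraries with 1 mean per group, Benjamini-Hochberg adjustment and a threshold of 0.05. Expressed means at least 1 CPM on average over the 6 libraries. GC content and length are those of the longest GENCODE release 29 transcript; the offset used mgcv 1.9.3. The test was also run on counts simulated from its own fitted means and spread, and the outcome is not given here. Replicates differed by more than sampling noise. Named genes were the called genes with a symbol, up to 8 per direction of protein-coding genes with unadjusted p under 0.01, at least 5 CPM and no overlap, 2 members per list, and genes the study centres on. The report prints part of these. The members and lists were chosen with earlier results of these data known. DESeq2 1.42.0 and other filters, scalings and sample sets were alternatives. The total count of 15081973 to 16441338 per library limits the precision for low genes. Promoter sequences are from RefSeq.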

Additional observations from a re-analysis of the deposited data

Results flagged for a closer look

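For 12 of the named genes the change at 12 h differed between HCC1937-EV and the line labelled HCC1937-OE-BRCA1 by the interaction test (edgeR, adjusted p under 0.05). The values are the log2 fold change in HCC1937-EV minus that in the other line. Among interferon-stimulated genes they were -1.62 for IFIT2, -1.60 for IFIT3, -1.45 for IFIT1, -1.34 for OAS1, -1.21 for OAS3, -0.88 for OASL, -1.21 for ZNFX1, -1.06 for DTX3L and -0.80 for ADAR. In HCC1937-EV itself ZNFX1, DTX3L and ADAR were at -0.37, -0.39 and -0.30, against 0.84, 0.66 and 0.50 in the other line. OAS3 was at -0.13 in HCC1937-EV, and IFIT1, IFIT2, IFIT3, OAS1 and OASL were positive there. None of these genes passed the main test in HCC1937-EV. The difference for BCL2L11, which encodes the pro-apoptotic protein BIM, was -0.75. In the other direction ZNF511 was at 1.32 and the pseudogene GCSHP5 at 1.18. Over 25 alternative settings, left-out libraries included, the difference passed in all 25 for IFIT1, IFIT2, IFIT3, OAS1, OAS3, ZNFX1, DTX3L and ADAR, in 21 for OASL, in 20 for GCSHP5, in 17 for ZNF511 (adjusted p up to 0.114, edgeR or DESeq2) and in 12 for BCL2L11 (adjusted p up to 0.129).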

How the results depend on the processing

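In HCC1937-EV at 12 h, where the report gives 10 calls, between 1 and 506 genes were called when 1 of its 6 libraries was left out, and H2AC6 was the 1 call kept in all 6 of these fits. The count was 18 without a filter on low counts, 276 with the DESeq2 Wald test, 196 with the GC and length offset, 0 with the 6 libraries alone, 0 with the 9 HCC1937-EV libraries alone and 18 at an adjusted p under 0.1. Without a filter and with edgeR's legacy dispersion estimation, a setting chosen after seeing the data, it was 818. A filter of at least 1 CPM over the 6 libraries, chosen likewise, gave 10. Whether replicate numbers pair the libraries stayed undecided. Same-numbered libraries correlated at 0.29, -0.0365 and 0.0455 in their deviations from the group means, and differently numbered ones at -0.302 to 0.277. These deviations also carry each library's GC trend, so they cannot decide it. The fit with the replicate block gave 5 calls, 4 of them among the 10, or 140 together with the GC and length offset. For the difference between the lines, 88 genes in the report, the count was 357 with DESeq2, 661 with the GC and length offset, 606 with the replicate block and that offset, 37 with the 12 libraries of 0 h and 12 h alone, and 644 without a filter and with legacy estimation. Leaving out 1 library gave 50 to 765, the highest without replicate 1 of the untreated libraries labelled HCC1937-OE-BRCA1. MAVS, not called in the report, had a line difference of 0.26 with the offset, the opposite sign, with an adjusted p of 0.0477 (edgeR). The cause was not tested. The median of the histone genes stayed between -0.59 and -0.44 over all 20 alternatives. Depth limits genes near 1 CPM.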
